A study of Mus musculus with 6 samples.

Results

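The transcripts described here are 37 immediate early, feedback and heat shock genes of the mouse, measured in cDC1s (type 1 conventional dendritic cells) with and without Cre deletion of the genes of the AP-1 subunits c-Jun and JunB. They were taken from a list of symbols that leaves out the AP-1 family itself, and each symbol was found once among the 54532 gene identifiers counted in every library. A total of 36 of the 37 had enough reads to be tested, among 12894 genes tested in all. The 6 libraries came from cDC1s that had been sorted as CD24+ CD11c+ B220- CD115- CD172a- cells on day 8 of bone marrow cultures given 80 ng/mL FLT3L, the ligand that drives dendritic cell development. Of these, 3 libraries carried floxed c-Jun and JunB alleles with no Cre named (c-Jun/JunB fl/fl, called WT in the labels) and 3 carried the same floxed alleles with Itgax-Cre (c-Jun/JunB Δ/Δ Itgax-Cre, called KO in the labels). Both genotypes share the floxed alleles and the mixed 129 Sv and C57BL/6 background that the study's methods give. The Cre is driven by the Itgax (CD11c) promoter, so that deletion takes place in cells that have switched on CD11c. The libraries are written as fl/fl 1 to 3 and Δ/Δ 1 to 3, with the replicate numbers of the labels. The labels give neither age nor sex. The study's methods name both sexes and an age range in weeks for its mice as a whole, not by library. Whether the libraries came from separate cultures is not in the labels either, whereas the study describes its RNA-seq data points as individual mice. The p-values therefore measure the spread between these 3 and 3 samples.

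Immediate early genes are transcribed within minutes of a stimulus without new protein synthesis, because the factors that drive them, such as serum response factor (SRF) on the CArG box, CREB on the cAMP response element (CRE) and NF-kB, are already present in the resting cell. Many of the products are transcription factors, such as the EGR zinc finger proteins and the NR4A orphan nuclear receptors, and many others end the response again, such as the dual specificity phosphatases of the MAP kinases, the mRNA decay factor ZFP36 and the NF-kB inhibitors IκBα and A20. Heat shock genes are driven by a separate factor, HSF1, on heat shock elements when proteins misfold. The AP-1 proteins c-Jun and JunB are themselves products of immediate early genes, so the comparison of the genotypes asks how the rest of that group of genes stood in Δ/Δ cDC1s.

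Promoter sequences show which of these elements lie close to the start sites. They were taken from RefSeq (GRCm38.p6), which gave 250 bases before and 50 bases after a start site for 30 of the 37 genes, and the 250 bases before each start were searched on both strands. Egr1, Egr3, Myc, Ier2, Trib1, Nfkbiz and Hspa8 had no sequence there, so they were not searched for any element. Printing the CArG box and the CRE was decided after values were seen, and every gene of the group with a match to either is shown. Promoters with only NF-kB or AP-1 motifs were not printed. A link between these elements and the levels of the genes was not tested. A CArG box lay in this window in 3 of the 30 genes (beside 1.62% of the 27025 genes in the table), with 2 adjoining copies in Dusp5. Each line below gives a stretch of the promoter on the strand of the gene with the CArG box in capitals.
Egr2, chr10:67537464-67537533, + strand: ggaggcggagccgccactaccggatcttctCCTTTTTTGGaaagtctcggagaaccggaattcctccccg
Dusp5, chr19:53529033-53529112, + strand: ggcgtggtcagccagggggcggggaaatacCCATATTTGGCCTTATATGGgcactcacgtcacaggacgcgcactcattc
Zfp36, chr7:28379247-28379316, - strand: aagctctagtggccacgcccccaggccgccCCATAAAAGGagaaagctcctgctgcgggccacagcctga

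The full CRE, TGACGTCA, was found in 5 of the 30 genes (16.7%, beside 1.77% of the genes in the table). The AP-1 motif was searched only as TGANTCA, which was found in Csrnp1 and Tnfaip3 (6.67% of the 30 genes, beside 7.82%). A CRE does not contain these letters and was not counted as an AP-1 match. The search does not show which factors a CRE binds. The lines give the CRE in capitals.
Btg2, chr1:134079284-134079351, - strand: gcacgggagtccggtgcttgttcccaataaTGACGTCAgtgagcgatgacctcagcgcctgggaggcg
Ppp1r15a, chr7:45526269-45526310, - strand: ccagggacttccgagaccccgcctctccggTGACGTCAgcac
Dusp1, chr17:26508578-26508645, - strand: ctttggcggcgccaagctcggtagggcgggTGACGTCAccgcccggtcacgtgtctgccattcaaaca
Plk2, chr13:110394952-110395019, + strand: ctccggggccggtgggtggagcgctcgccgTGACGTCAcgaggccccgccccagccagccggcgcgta
Maff, chr15:79347461-79347519, + strand: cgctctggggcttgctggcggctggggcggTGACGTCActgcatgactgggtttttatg
An NF-kB motif was present in 8 of the 30 genes (26.7%, beside 8.23%), which were Egr2, Maff, Ier3, Cxcl2, Nfkbia, Tnfaip3, Hspa1a and Hspa1b. A match describes the letters in this window and does not show that a factor binds there, and some genes have several start sites in the table, of which any match was counted. No binding was measured here.

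The libraries held 21693217 to 26788296 reads on genes, and levels are given as CPM (counts per 1000000 reads on genes, scaled by the TMM factors of edgeR). All 12 cDC1 markers on the list used to check the label were read, with summed levels of 8916 to 11420 CPM, and of these Xcr1, Tlr3 and Snx22 fell in the Δ/Δ libraries at an adjusted p under 0.05 in edgeR. T and NK cell markers summed to 0.851 to 1.16 CPM, B cell markers to 12.7 to 49.3 CPM and neutrophil markers to 0.851 to 21.02 CPM with Ly6g and Elane at 0 in every library. The 8 pDC markers summed to 246 to 265 CPM in the fl/fl and 266 to 317 CPM in the Δ/Δ libraries, the 10 monocyte and macrophage markers to 2448 to 2868 CPM and 3463 to 4297 CPM, and the 9 cDC2 markers to 224 to 369 CPM and 516 to 749 CPM. At an adjusted p under 0.05 in edgeR, Ccr9 rose of 7 pDC markers tested, and Ccr2 and Adgre1 of 7 monocyte and macrophage markers. Cd209a and Klf4 rose of 9 cDC2 markers. In these 3 lists 0 fell, beside 2.03% of all genes higher and 1.85% lower. Fold changes were positive in 6 of the 7 pDC, 4 of the 7 monocyte and macrophage and 7 of the 9 cDC2 markers. Of 5 markers of conventional dendritic cells as a whole, 1 fell and 0 rose at that limit. Of the deleted genes, Junb (ENSMUSG00000052837.6) stood at 314, 274 and 413 CPM in fl/fl 1 to 3 and at 110, 171 and 211 CPM in Δ/Δ 1 to 3, so that every Δ/Δ library was below every fl/fl library (log2 fold change -1.02, edgeR adjusted p = 0.0729). Jun (ENSMUSG00000052684.4) stood at 70.9, 52.4 and 63.1 CPM and at 48.1, 44.2 and 60.4 CPM, and the genotypes overlapped (log2 fold change -0.29, edgeR adjusted p = 0.345). These counts cover the whole gene rather than the deleted part, and the extent of deletion in these libraries was not tested. The study reports that quantitative RT-PCR showed deletion of both genes in cDC1s and cDC2s sorted from mice.

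No gene of the group passed an adjusted p of 0.05 between the genotypes, but most of the group stood higher in Δ/Δ cDC1s, and Δ/Δ 1 was the lowest Δ/Δ library in 30 of the 36 genes tested. In edgeR's quasi-likelihood test 0 of the 36 genes passed in either direction, where 500 of the 12894 genes tested did (3.88%), and 0 of 36 passed with a log2 fold change of at least 1 as well, where 1.86% of all genes did. At an unadjusted p under 0.05, 12 of the 36 were higher in Δ/Δ cDC1s (33.3%, beside 10.3% of all genes) and 0 were lower (beside 9.07%). These 12 were Egr1, Egr2, Egr3, Ier2, Ier5, Rhob, Zfp36, Nfkbia, Btg2, Ppp1r15a, Hsph1 and Dnajb1. The fold change was positive in 29 of the 36 (80.6%, beside 50.3% of all genes), with a median log2 fold change of 0.42 where that of all genes tested was 0.00. In 8 of the 36, Maff, Ier2, Rhob, Plk3, Nfkbia, Btg2, Hsph1 and Dnajb1, all 3 Δ/Δ libraries lay above all 3 fl/fl libraries (22.2%, beside 13.7% of all genes), and in 0 of them did all 3 lie below (beside 12.3%). The DESeq2 Wald test passed 5 genes as higher, Egr3, Ier2, Ier5, Btg2 and Ppp1r15a (beside 4.70% of all genes), edgeR without a filter on low counts passed Ier2, Zfp36 and Btg2 (beside 1.81%), and limma-voom passed 0. As these are bulk samples, more cells with such transcripts and more transcripts per cell cannot be told apart.

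**Figure D1:**
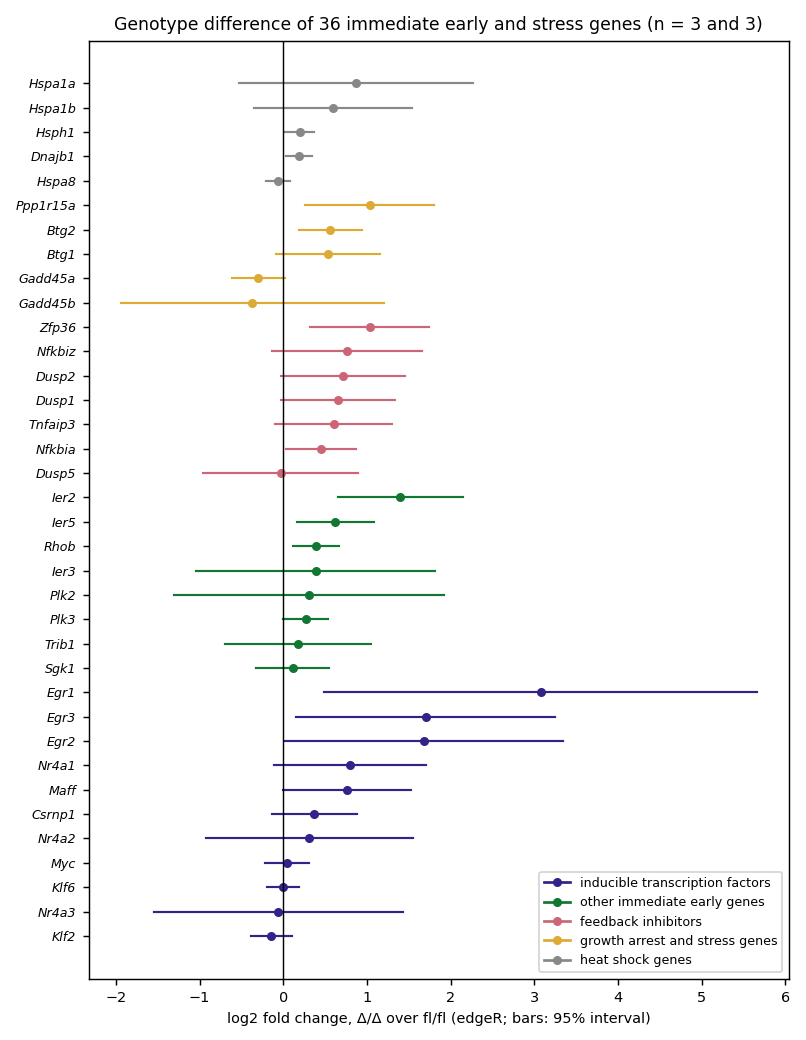
Log2 fold change of Δ/Δ over fl/fl for the 36 genes tested (x axis, log2 scale, n = 3 and 3) with its 95% interval as a bar, 1 gene per line, coloured by role. The estimates run from -0.37 for Gadd45b to 3.07 for Egr1, and 29 of the 36 lie above 0.

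The EGR genes had the largest log2 fold changes of the group and also the largest SDs of log2 CPM within the Δ/Δ libraries. Egr1 (ENSMUSG00000038418.7), the zinc finger factor that ERK signalling switches on through SRF, was read at 10.9, 4.89 and 49.97 CPM in fl/fl 1 to 3 and at 22.1, 221 and 309 CPM in Δ/Δ 1 to 3. Δ/Δ 2 and Δ/Δ 3 were far above all others, while Δ/Δ 1 lay inside the fl/fl range, between fl/fl 1 and fl/fl 3. The fold change was 3.07 ± 1.10 (log2, SE), with a 95% interval of 0.49 to 5.66 and an edgeR adjusted p of 0.188. The fl/fl libraries alone differed by 10.2-fold from lowest to highest, a spread of log2 CPM larger than in 99.9% of the genes tested. Egr3 (ENSMUSG00000033730.4, chr14:70077203-70082614), a relative of Egr1 known from T cell anergy, stood at 2.74, 3.00 and 4.24 CPM in the fl/fl libraries and at 2.15, 17.3 and 13.0 CPM in the Δ/Δ libraries. Again Δ/Δ 1 was no higher than the fl/fl libraries, in this case below all of them, and the other two Δ/Δ libraries were above all of them (log2 fold change 1.70 ± 0.66, edgeR adjusted p = 0.22). Egr2, which is named here beside its relatives after its values were seen, was close to the limit of detection with 0.462, 0.556 and 0.678 CPM and 0.324, 2.61 and 2.55 CPM, from 8 to 58 reads per library. It had the same pattern, with Δ/Δ 1 the lowest of the 6 libraries (log2 fold change 1.68 ± 0.71, edgeR adjusted p = 0.255).

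The NR4A receptors, which are induced by calcium and cAMP signals and by antigen receptor signalling in lymphocytes, differed less between the genotypes than among the Δ/Δ libraries. Nr4a1 (Nur77) stood at 17.0, 21.9 and 29.8 CPM in fl/fl 1 to 3 and at 19.7, 40.2 and 59.1 CPM in Δ/Δ 1 to 3. Only Δ/Δ 2 and Δ/Δ 3 exceeded the highest fl/fl library (log2 fold change 0.79 ± 0.39, edgeR adjusted p = 0.317). Nr4a3, which like the other genes of this paragraph was singled out after its values were seen, had levels of 51.4, 40.8 and 54.2 CPM and 12.3, 97.0 and 31.5 CPM. Its fl/fl libraries lay close together, whereas Δ/Δ 2 was 7.90-fold and Δ/Δ 3 was 2.56-fold above Δ/Δ 1, so that Δ/Δ libraries lay on both sides of the fl/fl range. The genotype means were almost equal, at 48.8 ± 7.11 and 46.9 ± 44.4 CPM (SD, n = 3), and the 95% interval of the log2 fold change ran from -1.54 to 1.42. Nr4a2 ranged from 2.31 to 10.9 CPM in the 6 libraries, with a log2 fold change of 0.31 ± 0.53.

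Of the other inducible transcription factors, the Krüppel-like factors and Myc had steadier levels than the EGR and NR4A genes. Klf6 (ENSMUSG00000000078.7, chr13:5861482-5870394), a Krüppel-like factor that is induced in activated myeloid cells, had the highest mean CPM of the transcription factors, with 419, 423 and 429 CPM in the fl/fl and 385, 476 and 408 CPM in the Δ/Δ libraries. The fl/fl libraries were within 1.02-fold of each other, and the Δ/Δ libraries lay on both sides of them (log2 fold change -0.0029 ± 0.08, 95% interval -0.20 to 0.19). Klf2, the factor of quiescent lymphocytes, and Myc, which drives growth, had intervals of -0.39 to 0.10 and -0.22 to 0.31 on the log2 scale, and in both the genotypes overlapped. The small Maf protein gene Maff stood at 10.7, 10.04 and 12.04 CPM and 12.7, 29.4 and 13.4 CPM. All 3 Δ/Δ libraries were above the fl/fl libraries, but by a wide margin in Δ/Δ 2 alone (log2 fold change 0.76 ± 0.32, edgeR adjusted p = 0.261). Csrnp1, a nuclear protein gene first described as induced by AXIN1, ranged from 18.0 to 34.4 CPM with a log2 fold change of 0.37 ± 0.22. A stretch of 6.45% of its exon bases overlaps the antisense transcript 1700019L13Rik, and the strand on which reads were counted is not stated.

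**Figure D2:**
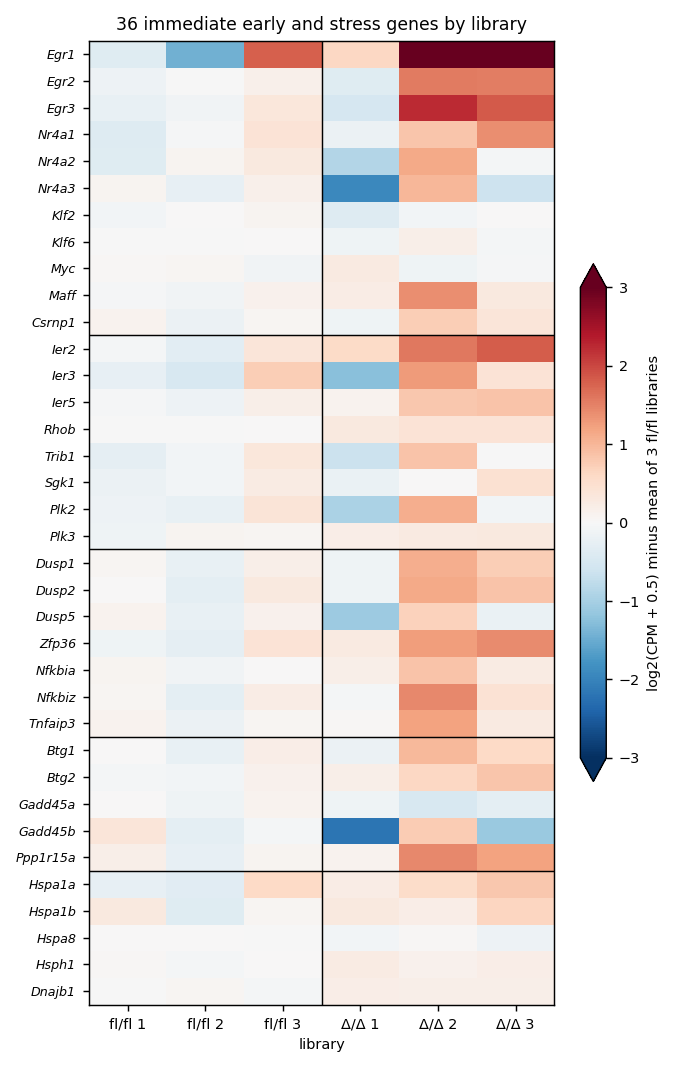
Level of the 36 genes tested (rows, grouped by role) in each library (columns), as log2(CPM + 0.5) minus the mean of the 3 fl/fl libraries of that gene. Red is above and blue below the fl/fl mean, and colours stop at 3 and -3. Most rows above the heat shock genes are red in Δ/Δ 2 and Δ/Δ 3 and pale or blue in Δ/Δ 1.

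Of the 8 other immediate early genes tested, Ier2, Rhob and Ier5 had an unadjusted p under 0.05. Ier2 (ENSMUSG00000053560.4, chr8:84661331-84662852), a short intronless gene whose product acts in the nucleus, was read at 71.3, 59.5 and 94.5 CPM in fl/fl 1 to 3 and at 110.4, 221 and 263 CPM in Δ/Δ 1 to 3. The genotypes did not overlap, and Δ/Δ 1 lay only just above fl/fl 3. With a log2 fold change of 1.40 ± 0.32 (95% interval 0.65 to 2.15), it had the smallest p of the group, and its edgeR adjusted p of 0.0627 did not pass. The DESeq2 Wald test gave it an adjusted p of 0.0057. Ier5 (ENSMUSG00000056708.5, chr1:155096361-155099636), known to promote the dephosphorylation of HSF1, had the highest mean CPM among the other immediate early genes, with 309, 285 and 353 CPM and 337, 552 and 569.6 CPM. Δ/Δ 1 lay between fl/fl 1 and fl/fl 3, and the other Δ/Δ libraries were above the fl/fl range (log2 fold change 0.62 ± 0.20, edgeR adjusted p = 0.143). Rhob (ENSMUSG00000054364.5, chr12:8497661-8500009), a small GTPase of endosomes, showed a small and even difference, with 8.52, 8.41 and 8.65 CPM against 10.5, 11.6 and 11.4 CPM. All 3 Δ/Δ libraries were above all 3 fl/fl libraries and close to each other (log2 fold change 0.39 ± 0.12, edgeR adjusted p = 0.124).

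The remaining genes of this role overlapped or differed little. Plk3, a polo-like kinase of the stress response, had a log2 fold change of 0.27 ± 0.12 without overlap of the genotypes (edgeR adjusted p = 0.269), whereas its relative Plk2, at 0.409 to 3.26 CPM, had an interval of -1.30 to 1.92. Ier3, which protects cells from death in the NF-kB response, was singled out after its values were seen and was read at 14.6, 12.5 and 29.5 CPM and 7.09, 43.3 and 23.6 CPM. Its lowest and its highest level were both in Δ/Δ libraries, which differed by 6.10-fold, and fl/fl 3 was 2.35-fold above fl/fl 2. Trib1, a pseudokinase that directs C/EBPα to degradation, and Sgk1, a kinase induced by glucocorticoids, had log2 fold changes of 0.17 ± 0.37 and 0.11 ± 0.18. The chemokine gene Cxcl2, a neutrophil attractant, had 10 reads in Δ/Δ 2 and 0 in each of the other libraries, where a count of 0 allows up to 0.111 to 0.132 CPM, and it was too low to be tested.

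The feedback inhibitors had the highest median log2 fold change of the 5 roles, at 0.65. Zfp36 (ENSMUSG00000044786.6, chr7:28376784-28380253), whose product tristetraprolin binds AU-rich elements and triggers the decay of cytokine mRNAs, had the highest mean CPM of this role, with 254, 234 and 369.5 CPM in fl/fl 1 to 3 and 340.0, 669.5 and 743 CPM in Δ/Δ 1 to 3. Δ/Δ 2 and Δ/Δ 3 were above all fl/fl libraries, and Δ/Δ 1 lay below fl/fl 3. The means were 286 ± 73.3 and 584 ± 215 CPM (SD, n = 3), with a log2 fold change of 1.03 ± 0.30 and an edgeR adjusted p of 0.122. The MAP kinase phosphatase genes Dusp1 and Dusp2 resembled each other in pattern. Dusp1 was read at 23.5, 19.4 and 25.6 CPM and 20.8, 48.9 and 38.0 CPM, and Dusp2 at 24.2, 19.7 and 29.5 CPM and 22.1, 54.0 and 44.2 CPM. In both, Δ/Δ 1 lay within the fl/fl range and the other Δ/Δ libraries were above it (log2 fold changes 0.65 ± 0.29 and 0.71 ± 0.32, edgeR adjusted p = 0.273 and 0.274). Dusp5, the nuclear ERK phosphatase with the 2 CArG boxes printed above, had the same library orders within each genotype as Dusp1 and Dusp2 but another place relative to the fl/fl range. It stood at 63.5, 50.6 and 65.3 CPM and 27.4, 96.0 and 51.9 CPM, so that Δ/Δ 1 was the lowest and Δ/Δ 2 the highest of all libraries, and the interval of its log2 fold change was -0.96 to 0.90. It shares 22.1% of its exon bases with the antisense transcript AC137853.2.

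Nfkbia, Tnfaip3 and Nfkbiz, the NF-kB regulators of this role, were highest in Δ/Δ 2. Nfkbia, which encodes IκBα and is itself a target of NF-kB, was read at 92.9, 80.8 and 88.5 CPM and 98.2, 158 and 103 CPM. All Δ/Δ libraries were above the fl/fl libraries, Δ/Δ 1 and Δ/Δ 3 by little and Δ/Δ 2 by more (log2 fold change 0.45 ± 0.18, edgeR adjusted p = 0.229). Tnfaip3, the gene of the ubiquitin-editing enzyme A20, had 47.4, 38.5 and 45.8 CPM and 44.5, 102 and 52.7 CPM, and Nfkbiz, the gene of the nuclear protein IκBζ, had 9.75, 7.48 and 10.9 CPM and 8.88, 26.1 and 12.8 CPM. In both of these Δ/Δ 1 lay within the fl/fl range, and the log2 fold changes of 0.60 ± 0.30 and 0.76 ± 0.38 did not pass (edgeR adjusted p = 0.324 and 0.332).

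Of the 5 growth arrest and stress genes, Btg2 and Ppp1r15a had an unadjusted p under 0.05, and both GADD45 genes had a negative fold change. Btg2 (ENSMUSG00000020423.6, chr1:134075170-134079120), an antiproliferative protein that promotes mRNA deadenylation and that p53 induces, had the highest mean CPM of this role, with 367, 358 and 418 CPM in the fl/fl and 426, 587 and 673 CPM in the Δ/Δ libraries. The genotypes did not overlap, although Δ/Δ 1 exceeded fl/fl 3 by little (log2 fold change 0.56 ± 0.16, 95% interval 0.19 to 0.94, edgeR adjusted p = 0.112). Its relative Btg1 ranged from 277 to 634 CPM and overlapped between genotypes (log2 fold change 0.54 ± 0.26). Ppp1r15a (ENSMUSG00000040435.12, chr7:45522916-45526268), also known as GADD34, directs protein phosphatase 1 to eIF2α and so ends the integrated stress response. It stood at 19.8, 14.6 and 18.7 CPM and 18.8, 48.8 and 41.2 CPM. Δ/Δ 1 was within the fl/fl range, and Δ/Δ 2 and Δ/Δ 3 were above it (log2 fold change 1.03 ± 0.33, edgeR adjusted p = 0.144). The GADD45 genes are stress sensors upstream of p38 and JNK, and in both the genotypes overlapped. Gadd45a was below the fl/fl mean in all Δ/Δ libraries, at 15.8, 14.2 and 16.7 CPM against 14.2, 11.05 and 12.6 CPM (log2 fold change -0.30 ± 0.13, edgeR adjusted p = 0.276), with 19.1% of its exon bases shared with the opposite-strand transcript E230016M11Rik. Gadd45b, singled out after its values were seen, had 44.2, 27.7 and 32.6 CPM and 7.09, 58.4 and 15.6 CPM. The 8.23-fold step from Δ/Δ 1 to Δ/Δ 2 was the widest within a genotype among the 36 genes after that of Egr1, and the interval of its log2 fold change was -1.95 to 1.21, with a value of 0.087 when Δ/Δ 1 was left out.

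**Figure D3:**
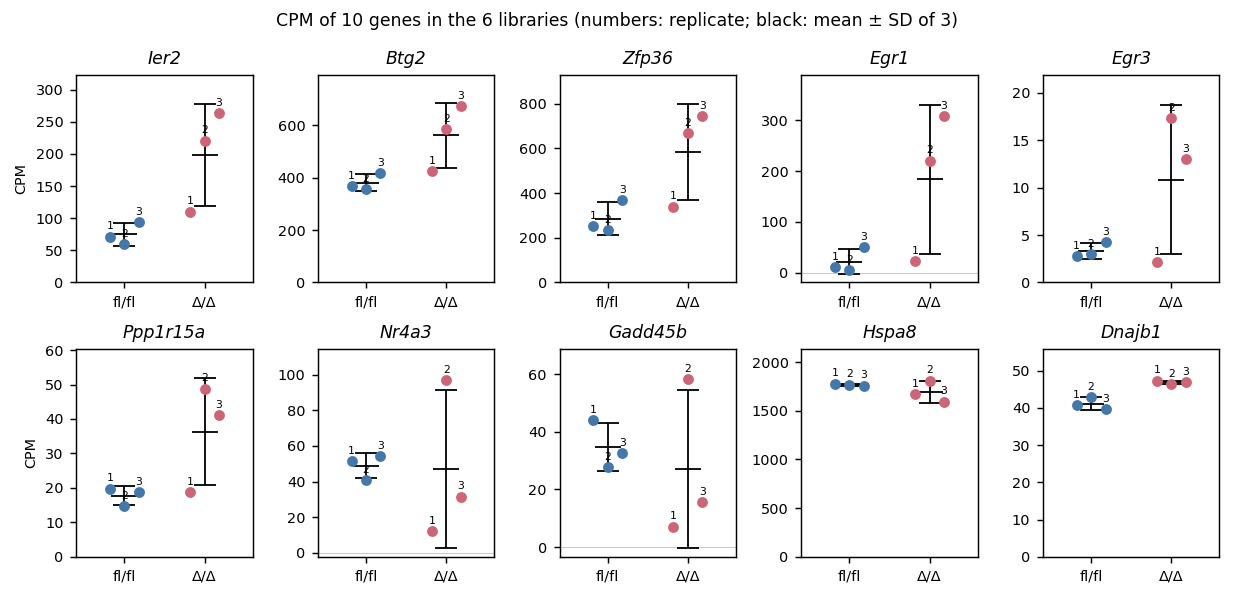
CPM (y axis, linear, own scale in each panel) of 10 genes in the 3 fl/fl (blue) and 3 Δ/Δ (red) libraries, with replicate numbers beside the points and the mean ± SD of 3 in black. In Egr1, Egr3, Zfp36, Ppp1r15a, Nr4a3 and Gadd45b, Δ/Δ 1 lies far below Δ/Δ 2, whereas the Dnajb1 points of each genotype lie close together and the genotypes do not overlap.

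Of the heat shock genes, Hspa8, Dnajb1 and Hsph1 differed little between the libraries. Hspa8 (ENSMUSG00000015656.17, chr9:40800984-40810087), the constitutive HSC70 chaperone, had the highest mean CPM of the whole group, with 1779, 1769 and 1759 CPM in fl/fl 1 to 3 and 1670.2, 1811 and 1594 CPM in Δ/Δ 1 to 3. Per kilobase of exon it reached 411 CPM in the fl/fl libraries, above 99.3% of the genes tested. The genotypes overlapped, with a log2 fold change of -0.06 ± 0.06 and an interval of -0.21 to 0.08. Dnajb1 (ENSMUSG00000005483.10, chr8:83608193-83612653), the HSP40 partner of HSP70, was read at 40.7, 43.0 and 39.7 CPM and 47.3, 46.5 and 46.9 CPM. Every Δ/Δ library was above every fl/fl library by a narrow margin, and the SD of its Δ/Δ libraries on the log2 scale was within the lowest 0.667% of the genes tested (log2 fold change 0.19 ± 0.07, edgeR adjusted p = 0.178). Hsph1 (ENSMUSG00000029657.15, chr5:149614287-149636376), the HSP110 exchange factor, had the same arrangement at 34.6, 32.2 and 33.8 CPM and 39.9, 36.8 and 38.4 CPM (log2 fold change 0.19 ± 0.07, edgeR adjusted p = 0.211).

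The stress-inducible HSP70 genes Hspa1a and Hspa1b were close to the limit of detection. Hspa1a had 6 to 25 reads per library and 0.27, 0.222 and 0.89 CPM against 0.568, 0.839 and 1.10 CPM, and Hspa1b had 11 to 30 reads and 0.925, 0.408 and 0.721 CPM against 0.932, 0.839 and 1.32 CPM. The genotypes overlapped in both (edgeR adjusted p = 0.468 and 0.468). Hspa1a shares 19.0% of its exon bases with the opposite-strand gene Gm20481. Reads of the neighbouring genes Hspa1a and Hspa1b are hard to tell apart. Of the distinct stretches of 75 bases of Hspa1a transcripts, 52.7% also occur in Hspa1b, and 55.8% the other way round. Multimapping reads were left out, so the separate values of both genes are uncertain and may be too low. Their promoters are also alike, with 247 of 250 bases before the start site the same (98.8%). A heat shock element, searched as GAANNTTC, lay in 3 of the 30 promoters (beside 7.73% of the genes in the table), those of Sgk1, Hspa1a and Hspa1b, and is shown in capitals because it is the element by which these genes are known to respond.
Hspa1a, chr17:34972223-34972290, - strand: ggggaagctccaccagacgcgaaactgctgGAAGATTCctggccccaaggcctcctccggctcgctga
Hspa1b, chr17:34959305-34959372, - strand: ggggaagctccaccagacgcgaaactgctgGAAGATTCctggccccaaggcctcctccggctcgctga

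Much of the variation of these genes lay between libraries of the same genotype, and it ran in the same direction in most of them. Within the Δ/Δ genotype, Δ/Δ 1 was the lowest library in 30 of the 36 genes (83.3%, beside 34.5% of all genes tested), including all 8 other immediate early genes tested and all 7 feedback inhibitors. The order Δ/Δ 1, Δ/Δ 3, Δ/Δ 2 from lowest to highest held in 20 genes (55.6%, beside 17.2%), among them Egr2, Egr3, Nr4a3, Dusp1, Tnfaip3, Gadd45b and Ppp1r15a. The order Δ/Δ 1, Δ/Δ 2, Δ/Δ 3 held in another 10 (27.8%, beside 17.3%), among them Egr1, Nr4a1, Ier2, Ier5, Zfp36 and Btg2. The median deviation of the 36 genes from the mean of log2 CPM of the Δ/Δ libraries was -0.56 in Δ/Δ 1, 0.42 in Δ/Δ 2 and 0.04 in Δ/Δ 3, where the medians over all genes tested were 0.00, -0.01 and 0.01. The same medians over the 5 heat shock genes were -0.02, -0.01 and 0.00. The genes that did not have Δ/Δ 1 as their lowest Δ/Δ library were Myc, Gadd45a, Hsph1, Dnajb1, Hspa1b and Hspa8.

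**Figure D4:**
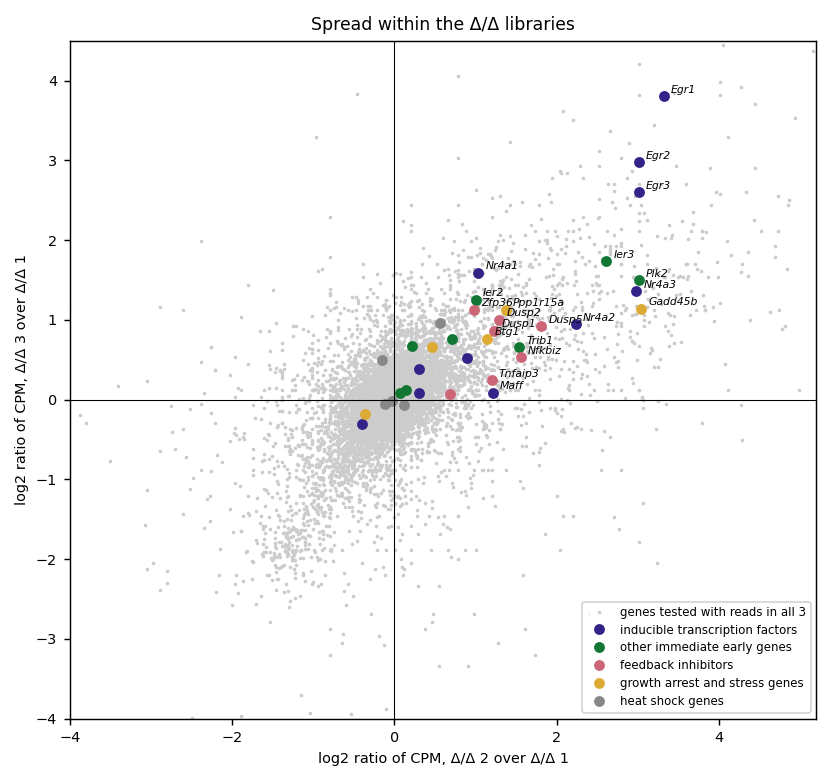
Log2 ratio of CPM of Δ/Δ 2 over Δ/Δ 1 (x axis) and of Δ/Δ 3 over Δ/Δ 1 (y axis) for the 36 genes (coloured by role) and all genes tested with reads in all 3 libraries (grey, 12827 genes, of which 34 lie beyond the axes). Both axes share Δ/Δ 1, which spreads points along the diagonal. In 31 of the 36 genes Δ/Δ 2 was above Δ/Δ 1, and Egr1, Egr2 and Egr3 lie at the upper right.

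The fl/fl libraries varied less, and also in a common direction. In 17 of the 36 genes their order from lowest to highest was fl/fl 2, fl/fl 1, fl/fl 3 (47.2%, beside 16.9% of all genes), and fl/fl 3 was the highest in 25 (69.4%, beside 35.6%). All 7 feedback inhibitors and all 5 growth arrest and stress genes were lowest in fl/fl 2. The median deviations from the fl/fl mean were -0.02, -0.14 and 0.15 in fl/fl 1 to 3. The SD of log2 CPM was larger within Δ/Δ than within fl/fl in 32 of the 36 (88.9%, beside 70.4% of all genes), with a median SD of 0.62 against 0.21, where all genes tested had 0.17 against 0.11. For the heat shock genes these medians were 0.09 and 0.06. With 3 libraries of each genotype these orders are a description, and the genes are not independent of each other.

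**Figure D5:**
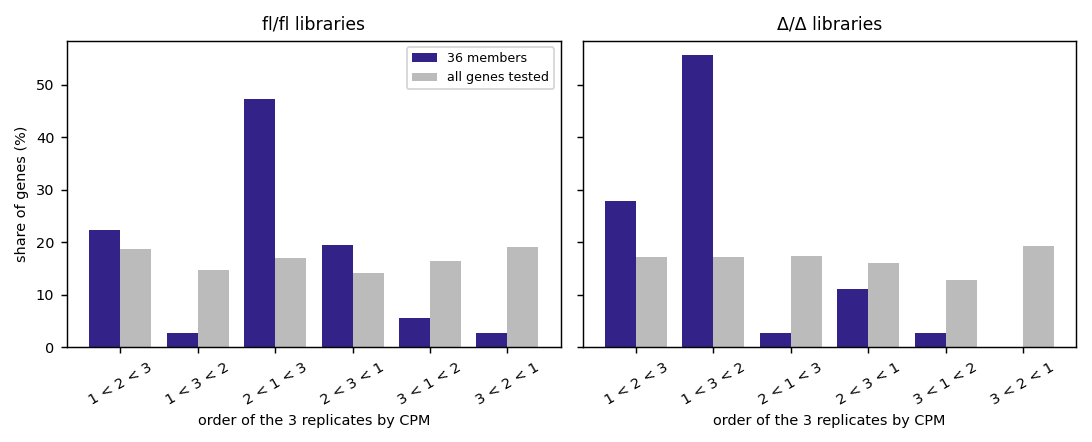
Share of genes (y axis, %) with each of the 6 possible orders of the 3 replicates from lowest to highest CPM (x axis), for the 36 genes (dark) and all genes tested (grey), in the fl/fl (left) and Δ/Δ (right) libraries. Among the 36, 47.2% share 1 order in the fl/fl and 55.6% share 1 order in the Δ/Δ libraries.

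In edgeR, the count of genes of the group that passed depended on Δ/Δ 1. It was the lowest Δ/Δ library in 30 of the 36 genes, so leaving it out raises the Δ/Δ means of those genes by construction. The passes in the fit without Δ/Δ 1 describe this dependence and are no separate evidence of a genotype difference. Without this library, 12 of the 36 genes passed an adjusted p of 0.05 in edgeR as higher in Δ/Δ cDC1s (33.3%, beside 4.53% of all genes in that fit), and 8 of these also had a log2 fold change of at least 1. These were Egr1, Egr2, Egr3, Nr4a1, Ier2, Dusp2, Zfp36 and Ppp1r15a, and the other genes that passed were Ier5, Dusp1, Btg1 and Btg2. In this fit Ier2 reached a log2 fold change of 1.69 (edgeR adjusted p = 0.00387), Egr3 reached 2.19 (edgeR adjusted p = 0.00387) and Ppp1r15a reached 1.35 (edgeR adjusted p = 0.00419). The median log2 fold change of the group was 0.71 without Δ/Δ 1 and 0.21 without Δ/Δ 2. When any other library was left out, 0 of the 36 passed. Sets of marker genes moved between the same libraries. The 11 mature dendritic cell markers, among them Ccr7, Fscn1 and Ccl22, summed to 548 CPM in Δ/Δ 1, 2301 CPM in Δ/Δ 2 and 738 CPM in Δ/Δ 3, the order found in 20 of the 36 genes, and to 1370, 1036 and 1226 CPM in fl/fl 1 to 3, where fl/fl 1 rather than fl/fl 3 was the highest. All 11 of them were higher in Δ/Δ 2 and in Δ/Δ 3 than in Δ/Δ 1, beside 47.2% and 51.8% of all genes. The sum of the 12 cDC1 markers had this order too, at 8916, 10819 and 9510 CPM in Δ/Δ 1 to 3. Of these 12, 11 were higher in Δ/Δ 2 and 10 in Δ/Δ 3 than in Δ/Δ 1. The 5 markers of conventional dendritic cells as a whole and the 4 neutrophil markers tested were all higher in both. The 7 proliferation markers, among them Mki67 and Top2a, ran the other way, at 1186, 550 and 370 CPM in Δ/Δ 1 to 3 and 1300, 1183 and 892 CPM in fl/fl 1 to 3. The 6 basophil and mast cell markers summed to 16.8 CPM in Δ/Δ 2 and to 0.462 to 2.46 CPM in the others. The 5 B cell markers summed to 12.7, 49.3 and 24.1 CPM in Δ/Δ 1 to 3, and all 5 were higher in Δ/Δ 2 and in Δ/Δ 3 than in Δ/Δ 1. The part of any of these in the levels of the immediate early genes was not tested.

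Levels can be set side by side between genes once they are divided by exon length. In the fl/fl libraries Hspa8 was followed by Btg2 at 139 CPM per kilobase of exon, Klf6 at 96.5, Ier5 at 96.4, Zfp36 at 82.3, Btg1 at 61.4, Klf2 at 54.7, Nfkbia at 54.3 and Ier2 at 49.3. Each of these 9 genes was above at least 93% of the genes tested. In the Δ/Δ libraries Btg2 stood at 205, Zfp36 at 168, Ier5 at 148 and Ier2 at 130 CPM per kilobase. The lowest were Hspa1a at 0.155, Egr2 at 0.166, Hspa1b at 0.244 and Plk2 at 0.286 CPM per kilobase in the fl/fl libraries, and none of these 4 was above more than 7.26% of the genes tested. The places of Hspa1a and Hspa1b may be too low, because multimapping reads were left out. The genes were short, as is known of immediate early genes. Their median span on the genome (GRCm38, GENCODE M21) was 5309 bases, beside 23533.5 bases for the 11170 protein-coding genes tested, and 33 of the 37 were shorter than that median.

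Of other genes of the same pathways, taken from lists drawn up with the group, 3 passed an adjusted p of 0.05 in edgeR, where 2.03% of all genes rose and 1.85% fell. Of 47 further immediate early and MAP kinase feedback genes, 39 were tested and 1 rose and 1 fell at an adjusted p under 0.05 in edgeR, with 5 higher and 4 lower at an unadjusted p under 0.05 (beside 10.3% and 9.07% of all genes) and a median log2 fold change of 0.14. The gene that rose was Klf4, a Krüppel-like factor that is also a cDC2 marker, from 71.1, 78.7 and 98.2 CPM in fl/fl 1 to 3 to 151, 133 and 203 CPM in Δ/Δ 1 to 3 (log2 fold change 0.98 ± 0.18, edgeR adjusted p = 0.0321). Unlike the EGR genes, it was above the fl/fl range in Δ/Δ 1 as well. Sik3, a salt-inducible kinase that holds CREB coactivators in the cytoplasm, fell from 94.6, 96.0 and 108 CPM to 69.7, 74.96 and 77.9 CPM (log2 fold change -0.42 ± 0.08, edgeR adjusted p = 0.0282). Of 26 further NF-kB feedback and inflammatory genes, 22 were tested and 0 rose and 1 fell in edgeR, with 5 higher and 1 lower at an unadjusted p under 0.05 (beside 10.3% and 9.07% of all genes) and a median log2 fold change of 0.20. The gene that fell was Cyld, a deubiquitinase that restrains NF-kB signalling, from 188, 192 and 190 CPM to 144, 160 and 137 CPM (log2 fold change -0.37 ± 0.07, edgeR adjusted p = 0.0315). Of 33 further heat shock genes and cytosolic chaperones, 31 were tested and 0 passed in either direction, with 4 higher and 4 lower at an unadjusted p under 0.05 (beside 10.3% and 9.07% of all genes) and a median log2 fold change of -0.08. Within the Δ/Δ libraries, Δ/Δ 2 was above Δ/Δ 1 in 21 of the 22 NF-kB genes tested, in 23 of the 39 immediate early and MAP kinase feedback genes and in 8 of the 31 chaperone genes, beside 47.2% of all genes. For Δ/Δ 3 above Δ/Δ 1 these counts were 17 of 22, 27 of 39 and 4 of 31, beside 51.8% of all genes.

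The AP-1 gene Fos, which SRF also drives, stood at 76.1, 52.1 and 136 CPM in fl/fl 1 to 3 and at 106, 236 and 377 CPM in Δ/Δ 1 to 3, in the order of Egr1 in both genotypes (log2 fold change 1.44, edgeR adjusted p = 0.178). Of 14 AP-1 genes tested, 0 passed an adjusted p of 0.05 in edgeR, with 4 higher and 3 lower at an unadjusted p under 0.05 (beside 10.3% and 9.07% of all genes).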

How the data were processed

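The submitters' processing notes name bcl2fastq 2.19.1.403, STAR 2.6.1a, RSEM and DESeq2 1.20.0 with GRCm38, and the methods add Gencode vM19. RNA was poly(A)-selected and prepared with a directional kit. The deposited values are whole read counts per gene and library, made by the authors with STAR and not normalized. The strand setting of these counts was not given in any source used here. Reads in bases that a gene shares with an antisense partner may therefore be counted for the wrong gene or left out as ambiguous. Between 79.1% and 79.7% of the reads counted in a library fell on genes. Rows for unmapped, multimapping, ambiguous and featureless reads were left out of totals and tests. Of the 54532 identifiers, 54495 were matched to GENCODE M21.

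The counts were tested for genotype in edgeR 4.0.16 (TMM factors 0.989 to 1.01, filterByExpr with a minimum count of 10, quasi-likelihood test, Benjamini-Hochberg adjustment over the 12894 genes tested, R 4.3.3). SEs are the fold change divided by the square root of F. A pass was an adjusted p under 0.05. The procedure was tested on simulated data. Alternatives were DESeq2 1.42.0 size factors and Wald test, limma-voom (limma 3.58.1), no filter, a stricter filter, leaving out each library, and the replicate number as a block. A count of 0 allows 3 reads of a library's total, and this limit covers counting error only.

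The genes and lists were chosen with earlier results of these data known. Values in every library are given for the 10 genes with the smallest unadjusted p, the gene with the highest mean CPM in each role, and Jun and Junb, and any other gene given by library was chosen after its values were seen. Promoters were to be printed for genes that passed, of which there were 0, and for the heat shock genes, of which those with the element searched are shown.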

Additional observations from a re-analysis of the deposited data

How the results depend on the processing

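Of 430 log2 fold changes of single genes computed under alternatives, 388 kept their direction and side of the threshold, 20 kept their direction and then passed, and 22 changed sign, in 10 genes. The median log2 fold change of the group stayed above 0, with a range of 0.21 to 0.71 as each library was left out in turn. The count of genes of the group past an adjusted p of 0.05, all of them higher in Δ/Δ cDC1s, was 0 in edgeR, 5 in the DESeq2 Wald test, 3 without a filter on low counts and 0 to 12 as each library was left out, with 3, 2 and 0 to 8 of these also past a log2 fold change of 1. The 12 came without Δ/Δ 1. Over all genes, 500 passed in edgeR, 1104 in the DESeq2 Wald test, 762 without a filter and 95 to 1320 as each library was left out, where the lowest count came on leaving out fl/fl 1 or fl/fl 2, the highest on leaving out Δ/Δ 1, and 201 on leaving out fl/fl 3. The causes of these shifts were not tested.

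Signs changed in genes with fold changes near 0 or with wide spread. Klf6 was at 0.0011 with DESeq2 size factors and 0.0010 in the DESeq2 Wald test, and Plk2 was at -0.14 in limma-voom and -0.044 with the replicate block. As each library was left out, the log2 fold changes ranged from -0.49 to 0.70 for Nr4a2, -1.16 to 0.40 for Nr4a3, -0.10 to 0.063 for Klf6, -0.084 to 0.12 for Myc, -0.30 to 0.86 for Ier3, -0.33 to 0.47 for Trib1, -0.10 to 0.25 for Sgk1, -0.73 to 0.78 for Plk2, -0.59 to 0.31 for Dusp5 and -1.62 to 0.087 for Gadd45b. With the replicate number as a block, 417 of all genes and 0 of the group passed, and no call on the group changed. The labels do not say whether the numbers pair the libraries. Same-numbered libraries had correlations of their deviations of 0.09, -0.15 and 0.20, and 3 of the 6 libraries correlated best with their own number. With 3 libraries of each genotype these values cannot decide whether the libraries were paired. Low reads limit Egr2, Plk2, Hspa1a and Hspa1b, and the stricter filter left out Hspa1a and Hspa1b, which have no value there. Cxcl2 was under the filter and was not tested.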
